A study of Rattus norvegicus with 10 samples.

Results

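The late-annotated miRNAs of the rat described here were those whose number after rno-miR- was 3000 or more, of any letter or arm. Of the 723 mature miRNAs counted in the deposited data, 102 carried such a number, and 621 did not and are called older below. Their level was followed in 10 small RNA libraries, 2 in each of 5 groups of female Wistar rats with collagen-induced arthritis, a model made by immunisation with bovine type II collagen in adjuvant. CIA_B was sampled before any therapy. MS_E and MS_A received mechanical stimulation, which the labels call AP, by a needle inserted under the skin and twirled at points of the back and leg, and were sampled at 1 h and at 34 days. PLA_E and PLA_A received intraperitoneal sterile saline as placebo and were sampled at the same times. The placebo arm was thus an injection without a needle at the sampled site. No group was free of arthritis, and the age of the rats was not given in the sources used here. The labels name the tissue sub-epidermidis muscle, the methods describe subcutaneous tissue around the stimulated points, and the design text also speaks of blood. The files do not say whether a library was made from 1 rat or more, so p-values measure the spread between libraries only.

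miRNAs are short RNAs cut from a hairpin precursor, whose 5′ or 3′ arm, or both, is loaded into a silencing complex and pairs with messenger RNAs mainly through the seed, bases 2 to 8. Numbers are given in order of submission to the registry, so a high number marks a sequence that was described late, when deep sequencing allowed rare small RNAs to be proposed as miRNAs. Such entries include true hairpins of low abundance, sequences read from the strand opposite an older hairpin and fragments of other small RNAs.

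The libraries held 1513799 to 8926170 reads assigned to miRNAs. The muscle miRNA miR-133a-3p stood at 67920 to 139360 cpm (reads scaled to a common library size, with TMM factors) in the 10 libraries, whereas the epidermal miR-203a-3p stood at 11.2 to 68.4 cpm. The leukocyte markers miR-142-3p, miR-142-5p, miR-150-5p and miR-223-3p summed to 12753 cpm in PLA_A replicate 1 and to 585 to 1788 cpm in the other 9 libraries. The myeloid miR-223-3p did not follow, at 43.3 cpm in that library and 10.4 to 70.1 cpm in the others. The muscle miRNA miR-1-3p did not follow the groups: within each group, 1 library held 80400 to 122962 cpm and the other 10115 to 15564 cpm. In each group the 2 libraries differed far beyond sampling noise and were kept as separate replicates.

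Sequences are shown here for the members whose counts allowed a test, because the results rest on them. They are mature sequences of RefSeq placed on GRCr8, a later build than the rn4 used by the authors, written 5′ to 3′ with the seed in capitals. The table held a mature sequence for 91 of the 102 members and for 10 of the 11 tested. None of these 10 shared its seed with another miRNA of the table.
miR-3068-5p: uUGGAGUUcaugcaaguucuaacca
miR-3068-3p: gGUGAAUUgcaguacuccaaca
miR-6329: aAUGUGACucagcuaucugaaca
miR-6328: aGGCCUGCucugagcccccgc
miR-3473: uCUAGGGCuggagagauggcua
miR-6331: cUUUGGUGgcuuaguucuuugugc
miR-3559-5p: uGACAGACuuaguacuacauga
miR-3102: cUCUACUCccugccccagcca
miR-6315: uCUGGACAggacaggcccugagc
miR-3585-5p: uUCACAAGaaggugucuuucau

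Most late-annotated miRNAs were not seen in this tissue. Of the 102 members, 57 (55.9%) had 0 counts in every library, against 87 of the 621 older miRNAs (14.0%). A further 26 never exceeded 3 counts in a library. More than 3 counts in at least 1 library were reached by 19 members (18.6%) and by 456 older miRNAs (73.4%). In a single library a count of 0 allows a true level of up to 3 counts, which corresponded to 0.366 to 2.60 cpm among the libraries. Zeros in all 10 libraries limit a mean level more tightly, by an amount not computed here. The 57 were thus not detectable at this depth and are not shown to be absent.

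Detection differed between ranges of numbers. Of the 12 members numbered 3065 to 3473, 5 exceeded 3 counts and 1 was at 0 throughout. Of the 67 members numbered 3541 to 3596, 7 exceeded 3 counts and 44 were at 0 throughout. Of the 23 members numbered 6215 to 6334, 7 exceeded 3 counts and 12 were at 0 throughout.

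Within a library, 7 to 15 members exceeded 3 counts, with a median of 12. CIA_B replicate 1, the shallowest library, held the 7, and PLA_E replicate 1 held the 15. When every library was thinned to the 1513799 reads of the shallowest, the median was 7.75, with MS_E replicate 1 lowest at 5.49, CIA_B replicate 1 at 7 and PLA_E replicate 1 at 8.63, and 11.8 members instead of 19 exceeded 3 counts in at least 1 library. Members took 0.00736% of the miRNA reads in MS_E replicate 1 and 0.0493% in PLA_A replicate 1, the lowest and the highest shares. Without miR-3068-5p the median share was 0.0177%, against 0.0268% with it, and PLA_A replicate 2 had the highest, 0.0222%. Of the 14824 counts of all members over all libraries, 12265 (82.7%) lay on the 2 arms of miR-3068. Only 7 members exceeded 3 counts in every library, namely both arms of miR-3068, miR-3577, miR-6329, miR-6328, miR-3473 and miR-6331.

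**Figure D1:**
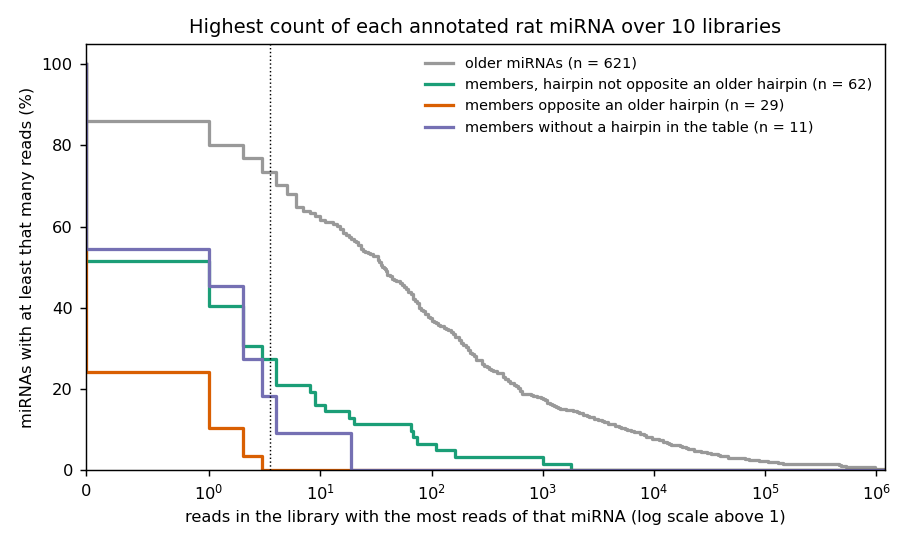
Share of miRNAs (y axis, percent) whose highest count over the 10 libraries is at least the number of reads on the x axis (log scale above 1), for the 621 older miRNAs and for late-annotated members split by the position of their hairpin on GRCr8. The dotted line separates 3 counts from 4; to its right stand 73.4% of the older miRNAs, 27.4% of the 62 members whose hairpin does not face an older one and none of the 29 that face one.

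A group of members is annotated on the strand opposite an older hairpin. In the RefSeq table, 29 members from 27 hairpins overlapped an older miRNA hairpin on the other strand by 36 to 110 bases. Of these 29, 22 (75.9%) were at 0 in every library and none exceeded 3 counts in any, the highest count being 3 and the sum over all members and libraries 24. Of the 62 members whose hairpin did not face an older one, 30 (48.4%) were at 0 and 17 (27.4%) exceeded 3 counts. The remaining 11 members had no hairpin in the table, and 2 of them exceeded 3 counts.

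The older miRNAs on the facing strand were well covered. The most counted arm exceeded 3 counts in every library for 21 of the 27 older hairpins, and its counts summed to more than 1000 for 16. Among the members fixed for description by their position, miR-3120, which faces miR-214, had 1 count in all, while miR-214-3p had 3385. miR-3065-5p, facing miR-338, had 6 counts in all and at most 2 in a library, and miR-3065-3p had 1, against 5799 counts of miR-338-3p. The 4 members named miR-3596 face let-7 hairpins, the let-7 family being abundant in most differentiated tissues, and none of the 4 had a single count. Over the same libraries let-7a-5p had 286705 counts, let-7d-5p 60707, let-7e-5p 19565 and let-7f-5p 570153. Since let-7a-5p and let-7f-5p each have a further precursor elsewhere in the genome, their counts need not come from the hairpin that is faced.

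The widest contrasts lay at the muscle miRNAs, and these pairs were picked after their values were seen. miR-3582, opposite the miR-133a hairpin, and miR-3571, opposite the miR-1 hairpin, had no count in any library. The facing miR-133a-3p had 5355801 counts and miR-1-3p 3099162. The counts list no further precursor for either, so reads from any copy of these hairpins elsewhere in the genome could not be told apart. The order was turned round at 1 hairpin, where miR-3546 had 7 counts and the heart-muscle miRNA miR-208a-3p 5, both too few to compare.

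**Figure D2:**
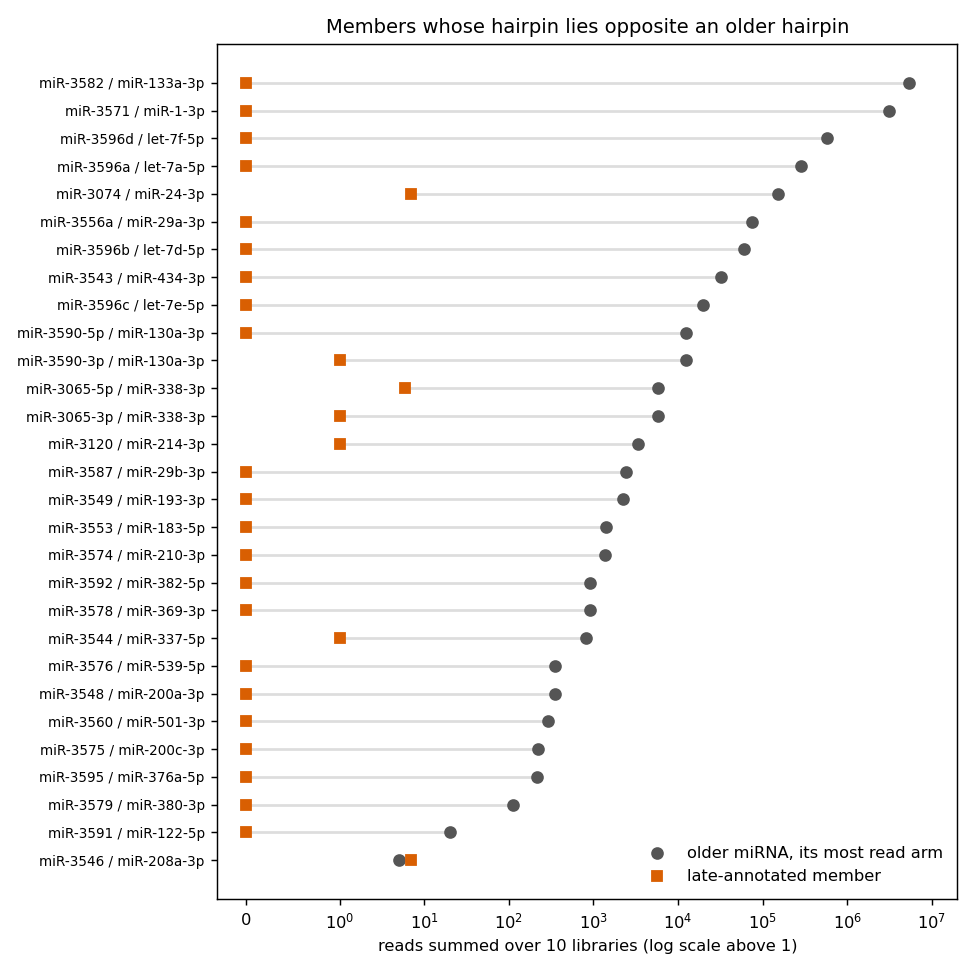
Reads summed over 10 libraries (x axis, log scale above 1) for each of the 29 members whose hairpin faces an older hairpin (squares) and for the most counted arm of that older hairpin (circles). Squares lie at 7 reads or fewer, while circles reach 5355801 reads at miR-133a-3p.

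The facing arms are close to mirror images. Of the 28 such members with a mature sequence, 27 held a run of 16 or more bases complementary to an annotated arm of the older hairpin, and 16 were complementary over their whole length. miR-3596a and let-7a-5p, and miR-3571 and miR-1-3p, are printed to show the relation, again with the seed in capitals. The former pair is complementary over 22 of 22 bases and occupies chr8:50805219-50805240, minus strand for the member and plus strand for let-7a-5p. The latter shares a run of 21 bases at chr18:2160340-2160362, plus strand, and chr18:2160339-2160360, minus strand. For miR-3120 the longest run was 5 bases to the annotated miR-214-5p and 3 to miR-214-3p. Its 21 bases are nevertheless complementary over their whole length to the miR-214 hairpin. The stretch they match lies mostly outside the 17 bases annotated as miR-214-5p.
miR-3596a: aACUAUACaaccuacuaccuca
let-7a-5p: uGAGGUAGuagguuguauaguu
miR-3571: uACACACUucuuuacauuccaua
miR-1-3p: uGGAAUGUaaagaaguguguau
miR-3120: cACAGCAAguguagacaggca
miR-214-3p: aCAGCAGGcacagacaggcag

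The 11 members that reached 1 cpm in at least 5 libraries, counted before TMM scaling, could be tested, among 359 miRNAs in all. Ranked by mean cpm over the 10 libraries among those 359, miR-3068-5p was 99th with 121 cpm and miR-3068-3p was 102nd with 108 cpm. The other 9 lay between rank 218 (miR-3577, 9.48 cpm) and rank 357 (miR-3585-5p, 0.875 cpm). The median of the 11 was 6.92 cpm, against 18.6 cpm for the 359 tested miRNAs, so the members that could be tested were mostly of low level.

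miR-3068 was the most abundant hairpin among the members. RefSeq lists it at chr6:112811875-112811950 of GRCr8, minus strand, under the symbol Snora58, that of an H/ACA small nucleolar RNA, within the gene Alkbh1 and on its strand. The hairpin is printed because both arms were counted in every library, and the arms stand in capitals.
miR-3068 hairpin: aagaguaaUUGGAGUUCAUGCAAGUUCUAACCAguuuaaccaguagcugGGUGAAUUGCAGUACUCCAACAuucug

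The level of the 5p arm fell into separate ranges within each group. miR-3068-5p measured 209 and 22.2 cpm in CIA_B replicates 1 and 2, 7.87 and 231 cpm in MS_E, 189 and 22.1 cpm in PLA_E, 26.8 and 225 cpm in MS_A, and 236 and 40.8 cpm in PLA_A. One library of each group was therefore at 189 cpm or more and the other at 40.8 cpm or less, and every pair of groups overlapped. The 3p arm measured 102 and 112 cpm in CIA_B, 63.6 and 76.3 cpm in MS_E, 96.5 and 145 cpm in PLA_E, 118 and 100.1 cpm in MS_A, and 79.7 and 192 cpm in PLA_A. It spanned 3.01-fold from the lowest to the highest library, against 30.0-fold for the 5p arm.

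As a result the arm that prevailed changed from library to library. The 5p share of miR-3068 reads was 67.2% in CIA_B replicate 1 (95% Wilson interval 62.2 to 71.9%, from 360 reads), 75.2% in MS_E replicate 2 (73.2 to 77.0%), 66.2% in PLA_E replicate 1 (64.2 to 68.2%), 69.2% in MS_A replicate 2 (67.5 to 71.0%) and 74.7% in PLA_A replicate 1 (72.3 to 77.1%). In the other library of each group it was 16.5% in CIA_B (14.2 to 19.0%), 11.0% in MS_E (8.48 to 14.2%), 13.2% in PLA_E (10.8 to 16.2%), 18.5% in MS_A (15.6 to 21.8%) and 17.6% in PLA_A (15.6 to 19.8%). These intervals cover counting error only, and no interval of one set reached the other. The 5 libraries where the 5p arm prevailed were the 5 that held more miR-1-3p in their group. Another muscle miRNA, miR-206-3p, stood at 12031 to 16097 cpm in them and at 1143 to 1867 cpm in the rest. The leukocyte miR-150-5p was likewise apart, at 572 to 6220 cpm against 256 to 527 cpm. The muscle miR-133a-3p overlapped, at 70505 to 128713 cpm against 67920 to 139360 cpm. The leukocyte markers miR-142-3p, miR-142-5p and miR-223-3p overlapped too. No comparison between groups of the study is involved, since each group holds a library of either kind, and what set the libraries apart was not tested.

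**Figure D3:**
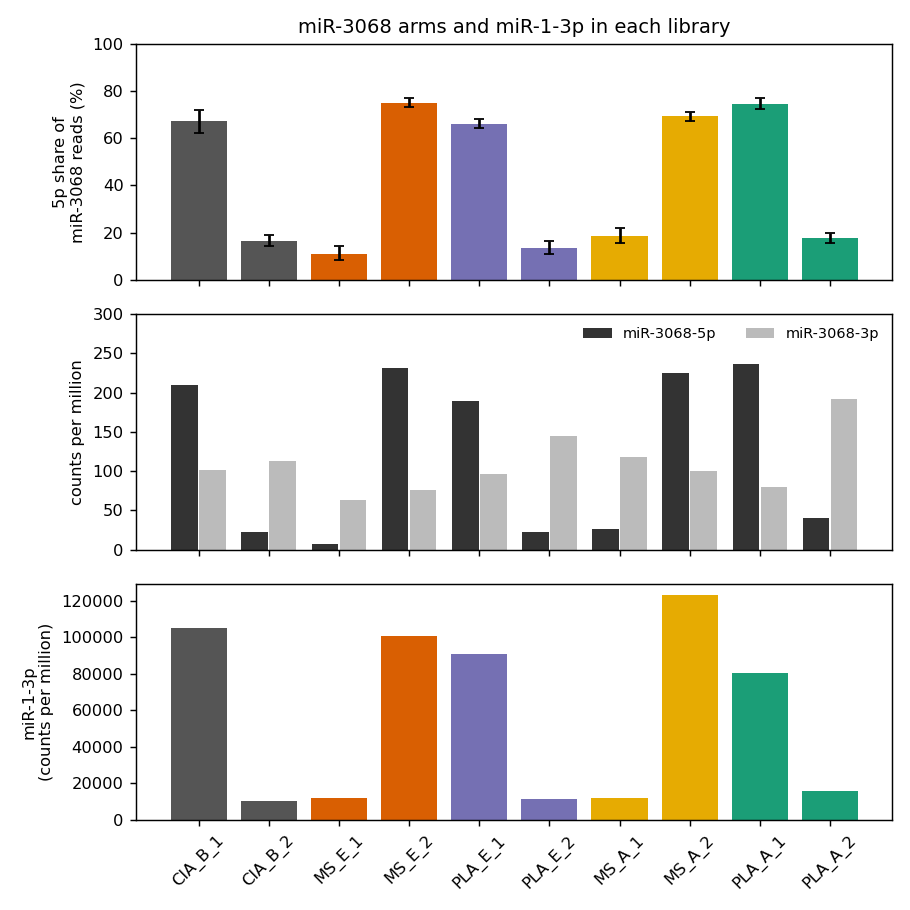
For each library on the x axis, the 5p share of miR-3068 reads with its 95% Wilson interval (top, percent), the cpm of both miR-3068 arms (middle) and the cpm of miR-1-3p (bottom), coloured by group in the top and bottom panels. The 5p share lies between 66.2 and 75.2% in 5 libraries and between 11.0 and 18.5% in the other 5, and miR-1-3p is high in the former and low in the latter.

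miR-3577, which lies within the gene Tmem94 and on its strand, showed the same division. It measured 15.6 and 2.65 cpm in CIA_B, 1.08 and 14.8 cpm in MS_E, 12.9 and 3.31 cpm in PLA_E, 2.61 and 20.6 cpm in MS_A, and 18.2 and 3.10 cpm in PLA_A. The 5 libraries with more miR-1-3p stood at 12.9 to 20.6 cpm and the other 5 at 1.08 to 3.31 cpm. Of the 359 miRNAs tested, 34 (9.47%) were higher in each of those 5 libraries than in any of the other 5, and 2 of the 11 members, miR-3068-5p and miR-3577, were among them. The reverse held for 18 miRNAs (5.01%) and no member.

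Differences between groups were then tested with edgeR's quasi-likelihood test in a fit of all 10 libraries. A miRNA was called where its change passed 2-fold and its p-value, before adjustment, was under 0.05, the criteria of the original analysis. Over the 5 groups together, no member passed an unadjusted p of 0.05, against 15 of the 359 miRNAs (4.18%). The smallest value among the members was an unadjusted p = 0.193 for miR-6329 (edgeR, Benjamini-Hochberg adjusted p = 1.00). Across the 8 comparisons, 1 call was made among the 11 members, that of miR-6329 in MS_E against PLA_E. No miRNA, member or older, had an adjusted p under 0.05 in this edgeR fit or with limma-voom, in any of the 8 comparisons or over the 5 groups. DESeq2 gave 0 to 9 such miRNAs, edgeR without the filter on low counts gave 5 over the 5 groups, and edgeR without MS_E replicate 2 gave up to 6 and without PLA_A replicate 2 up to 1. No member was among them. At an unadjusted p under 0.05, edgeR counted 67 of the 359 miRNAs in at least 1 comparison, among them 1 member. A comparison of 2 libraries with 2 allows no exact permutation p below 0.333. The pooled comparisons, of 4 libraries with 4, would allow a lower one, but the fit across all miRNAs was used for every comparison.

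miR-6329 is annotated at chr8:61334292-61334314 of GRCr8, minus strand, opposite the gene Rdx, which encodes radixin, a linker of actin to the cell membrane. It measured 6.92 and 7.94 cpm in CIA_B, 4.01 and 3.90 cpm in MS_E, 7.10 and 19.3 cpm in PLA_E, 9.73 and 6.34 cpm in MS_A, and 6.23 and 12.2 cpm in PLA_A. Both MS_E libraries lay below the other 8, and how many of the 359 miRNAs do so was not counted. In MS_E against PLA_E, where 14 of the 359 miRNAs were called (3.90%) and 3 of them lower (0.836%), it was lower by a log2 fold change of -1.64 (SE 0.64, edgeR, unadjusted p = 0.0236, adjusted p = 0.832). The difference rested on few reads, 26 and 25 in MS_E and 53 and 70 in PLA_E. Without PLA_E replicate 2 the log2 fold change was -0.79 (unadjusted p = 0.260 by edgeR's quasi-likelihood test), and without PLA_E replicate 1 it was -2.18 (unadjusted p = 0.00751). The call was also lost, at folds close to that of the full fit, without MS_E replicate 1 (-1.70, unadjusted p = 0.0704 by edgeR), without MS_E replicate 2 (-1.62, unadjusted p = 0.0791) and when only these 4 libraries were fitted (-1.58, unadjusted p = 0.0662). With both times pooled, MS against PLA gave -0.92 (SE 0.44, edgeR, unadjusted p = 0.0557, adjusted p = 0.850), under the 2-fold threshold. In that comparison the leukocyte markers miR-142-3p and miR-142-5p were called lower, and miR-150-5p and miR-223-3p were not called. PLA_A replicate 1 held the highest level of both called markers, 636 and 5854 cpm. Their part in the result was not tested.

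The 2 members on the study's own list of differential miRNAs, which was chosen on these libraries and is no independent evidence of a direction, were not called in this fit, but their calls depended on the method. miR-6328, opposite the gene Ppp1r18, measured 6.92 and 16.5 cpm in CIA_B, 4.94 and 1.72 cpm in MS_E, 6.57 and 9.38 cpm in PLA_E, 9.96 and 2.93 cpm in MS_A, and 9.71 and 4.19 cpm in PLA_A. The MS_E libraries lay below both CIA_B libraries and both PLA_E libraries, while the libraries taken at 34 days overlapped CIA_B. How many of the 359 miRNAs are ordered like miR-6328 was not counted. In MS_E against CIA_B, where 23 of the 359 miRNAs were called (6.41%), the log2 fold change was -1.75 (SE 0.84, edgeR, unadjusted p = 0.0528, adjusted p = 0.722). Some markers of other cell types were higher in MS_E in the same comparison. The epidermal miR-203a-3p and miR-205 summed to 138 and 101 cpm in MS_E and to 28.6 and 66.6 cpm in CIA_B, and neither was called. Of the 4 leukocyte markers only miR-223-3p was called higher, at 64.7 and 70.1 cpm against 10.4 and 28.1 cpm, while the 4 summed to 587 and 1782 cpm against 688 and 585 cpm. Of the 2 erythroid markers miR-451-5p was called higher, at 79.8 and 19.8 cpm against 19.9 and 12.9 cpm, and miR-144-3p was not. The part of these markers in the result was not tested. With limma-voom, the method of the original analysis, miR-6328 was called, at -2.05 (unadjusted p = 0.0380). It was also called with DESeq2, the size factors of DESeq2, scaling by library size only, no filter, the replicate block and a term for the division by miR-1-3p. The edgeR value was -0.98 (unadjusted p = 0.352 by edgeR's quasi-likelihood test) without CIA_B replicate 2, which held the highest level of the 10 libraries, and -2.66 (unadjusted p = 0.0252) without MS_E replicate 1.

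miR-6331 lies at chr6:134564374-134564397 of GRCr8, plus strand, in the imprinted Dlk1-Dio3 miRNA cluster, whose members are cut from long non-coding transcripts of the maternal chromosome. It measured 5.19 and 11.0 cpm in CIA_B, 3.70 and 6.40 cpm in MS_E, 2.28 and 12.4 cpm in PLA_E, 3.08 and 4.27 cpm in MS_A, and 1.74 and 2.92 cpm in PLA_A. All 4 libraries taken at 34 days lay below both CIA_B libraries, whereas the libraries taken at 1 h overlapped them. How many of the 359 miRNAs are ordered like miR-6331 was not counted. In PLA_A against CIA_B, where 25 of the 359 miRNAs were called (6.96%), the log2 fold change was -1.69 (SE 0.85, edgeR, unadjusted p = 0.0583, adjusted p = 0.543). In MS_A against CIA_B, where 4 miRNAs were called (1.11%), it was -1.11 (SE 0.82, edgeR, unadjusted p = 0.182, adjusted p = 0.994). Among those called was miR-223-3p, higher at 57.4 and 51.6 cpm in MS_A against 10.4 and 28.1 cpm in CIA_B. The other leukocyte markers and the erythroid markers were not called there. In PLA_A against CIA_B miR-6331 was called with DESeq2 (-1.95, unadjusted p = 0.0375), with the replicate block (-1.60, unadjusted p = 0.0350 by edgeR) and with only the libraries compared (-1.69, unadjusted p = 0.0340 by edgeR), and not with limma-voom (-1.87, unadjusted p = 0.0730). The comparisons share the CIA_B libraries, and without CIA_B replicate 2 the former was -1.03 (unadjusted p = 0.341 by edgeR's quasi-likelihood test). PLA_A replicate 1, where miR-6331 was lowest, is the library where 3 of the 4 leukocyte markers, all but miR-223-3p, were highest, and these 3 and the erythroid miR-144-3p were called higher in PLA_A than in CIA_B. Without it the log2 fold change of miR-6331 was -1.45 (unadjusted p = 0.201 by edgeR's quasi-likelihood test).

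The neighbours of miR-6331 were examined after its values were seen. RefSeq places 13 other miRNA hairpins within 10 kb, 10 of them on its strand. Of the 11 tested arms from these 10 hairpins, 9 were below 0 in PLA_A against CIA_B, as were 159 of all 359 miRNAs (44.3%), with a median log2 fold change of -1.19 against 0.11. Among the 359, 8 (2.23%) were called lower, and 2 of the 11 arms were among them, miR-381-3p (log2 fold change -1.52, SE 0.61, edgeR, unadjusted p = 0.0317, adjusted p = 0.543) and miR-539-3p (-2.08, SE 0.91, edgeR, unadjusted p = 0.0248, adjusted p = 0.543). The other 3 hairpins lie on the opposite strand and give the late-annotated miR-3595, miR-3576 and miR-3592, which had no count in any library.

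**Figure D4:**
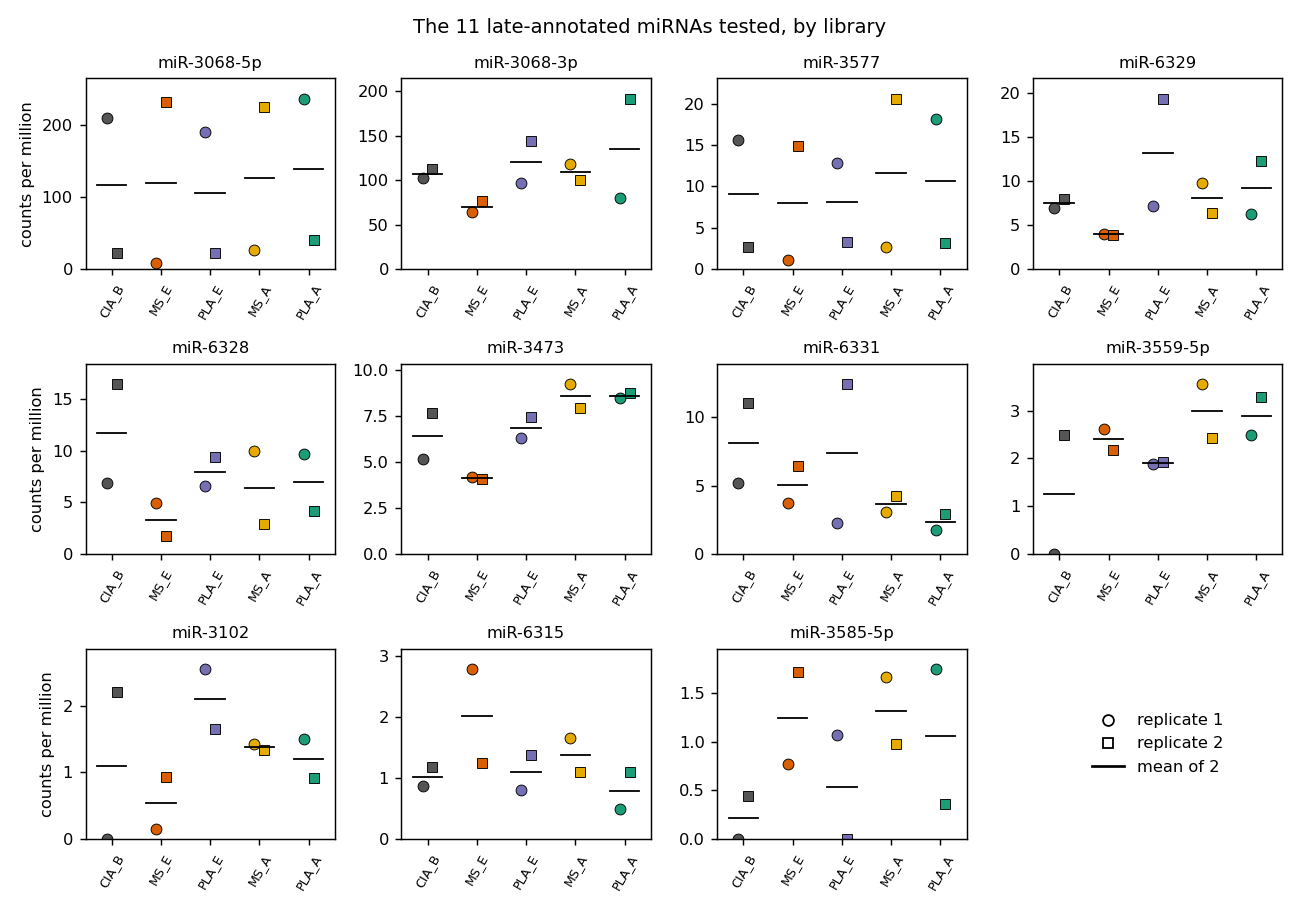
Level in cpm (y axis, from 0, its own scale in each panel) of the 11 tested members in each library, by group on the x axis; circles are replicate 1, squares replicate 2 and lines the mean of both. miR-3068-5p and miR-3577 split every group, and miR-6329 and miR-3473 are lowest in both MS_E libraries.

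miR-3473 resembles the start of the B2 family of short interspersed repeats, so its reads can fit many places of the genome and its count is uncertain. It measured 5.19 and 7.65 cpm in CIA_B, 4.17 and 4.06 cpm in MS_E, 6.30 and 7.45 cpm in PLA_E, 9.25 and 7.92 cpm in MS_A, and 8.47 and 8.75 cpm in PLA_A. Its 4 libraries taken at 34 days lay above the other 6, and the MS_E libraries below the other 8. How many of the 359 miRNAs are ordered like miR-3473 was not counted. With the arms pooled, 34 days against 1 h gave a log2 fold change of 0.65 (SE 0.34, edgeR, unadjusted p = 0.0690, adjusted p = 0.801), below 2-fold, in a comparison where 17 of the 359 miRNAs were called (4.74%). Of the leukocyte markers only miR-142-5p was called in it, higher at 34 days. That marker stood at 5854 cpm in PLA_A replicate 1, 226 to 551 cpm in the other libraries at 34 days and 240 to 372 cpm at 1 h. Its part in the result was not tested. The span of miR-3473 from the lowest to the highest library, 2.28-fold, was the narrowest among the 7 members seen above the floor in every library.

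The remaining 4 tested members were near the floor and gave no call. miR-3559-5p, within the gene Zdhhc15, had 0 to 20 counts in a library and 0 to 3.56 cpm, and its 3p arm 31 counts in all against 132. miR-3102, within Arhgef17, had 0 to 19 counts, and in MS_E against PLA_E its log2 fold change was -1.45 (SE 1.04, edgeR, unadjusted p = 0.0898, adjusted p = 0.832). miR-6315, within Vps51 and on its strand, had 1 to 18 counts. miR-3585-5p, near miR-201 and miR-547, had 0 to 11 counts, with 0 and 3 in CIA_B, at or under the floor, so no fold against that group is given and it is left out of the medians against CIA_B.

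Across comparisons, the medians of the members were lowest in the 2 that involve MS_E libraries alone on one side. In MS_E against PLA_E, 7 of the 11 had a log2 fold change below 0, with a median of -0.48 against 0.03 for all 359 miRNAs tested. The epidermal markers summed to 138 and 101 cpm in the MS_E libraries against 90.9 and 53.0 cpm in PLA_E. Of them miR-203a-3p was higher in both MS_E libraries, at 68.4 and 41.5 cpm against 29.5 and 30.6 cpm. The other, miR-205, overlapped, at 69.2 and 59.0 cpm against 61.4 and 22.3 cpm. None of the epidermal, leukocyte and erythroid markers was called in this comparison, and their part in the result was not tested. Both MS_E libraries lay below both PLA_E libraries for 5 members, miR-3068-3p, miR-3102, miR-3473, miR-6328 and miR-6329, while this held for 42 of the 359 miRNAs (11.7%), and above for 1, miR-3559-5p, against 59 (16.4%). The median of the members stayed below that of all miRNAs when the counts were scaled by library size only, at -0.49 against -0.23, and with the size factors of DESeq2, at -0.52 against 0.01. In MS_E against CIA_B, a comparison that shares the MS_E libraries, 7 of the 10 members above the floor were below 0, with a median of -0.62 against 0.06.

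In the other comparisons the medians of the members were nearer to those of all miRNAs. Over the 10 members above the floor they were 0.02 against 0.07 in PLA_E against CIA_B, where 2 miRNAs were called (0.557%), and 0.11 against 0.10 in MS_A against CIA_B. In PLA_A against CIA_B the median of the 10 was 0.28 against 0.11. MS_A against PLA_A, in which 7 miRNAs were called (1.95%), gave 0.03 against -0.02, and the smallest unadjusted p among the members was 0.386 by edgeR's quasi-likelihood test. In 34 days against 1 h, 9 of the 11 were above 0, with a median of 0.27 against 0.06. In MS against PLA over both times, where 12 miRNAs were called (3.34%), the median was 0.02 against -0.03. This last median changed sign with limma-voom, at -0.37 with 7 of the 11 below 0, and with library size only, at -0.15 with 9 of the 11 below 0 while that of all miRNAs was -0.30. That of MS_A against PLA_A was -0.02 with limma-voom, against -0.01 for all miRNAs. With library size only it was -0.26, where the scaling put all miRNAs at -0.34, so the members stayed above them. That of PLA_E against CIA_B was -0.04 with DESeq2, against 0.05 for all miRNAs.

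**Figure D5:**
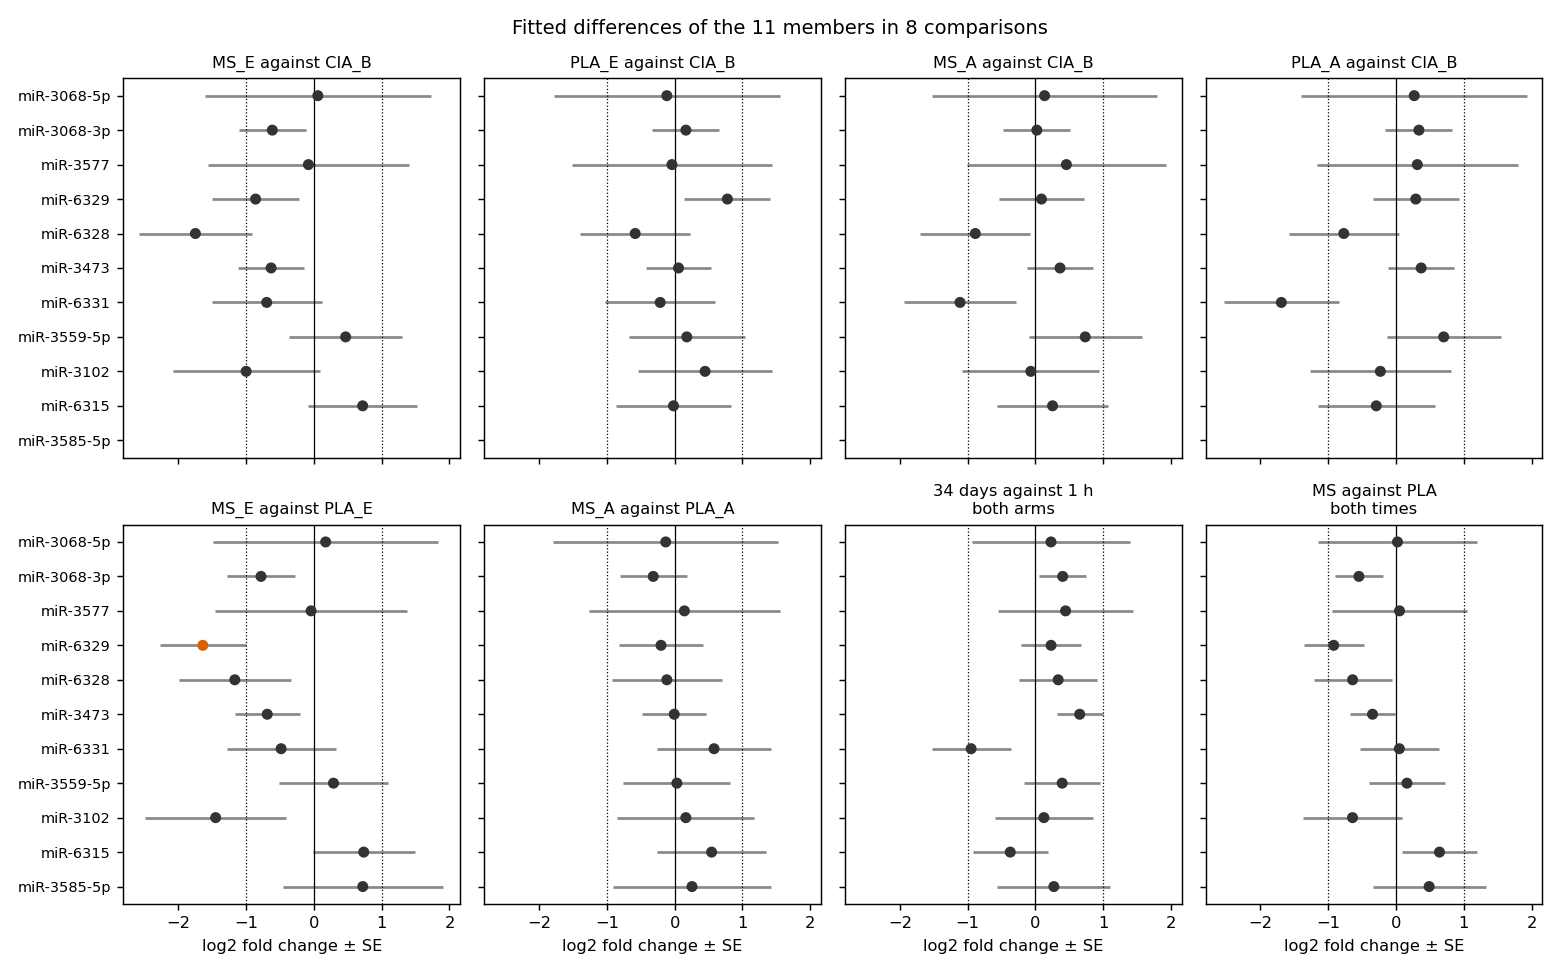
Fitted log2 fold change (x axis, with its standard error as a bar) of each of the 11 members (y axis, ordered by mean level) in the 8 comparisons, with miR-3585-5p left blank against CIA_B. Dotted lines mark 2-fold either way; the single call, miR-6329 in MS_E against PLA_E at -1.64, is in orange, and miR-3068-5p, which splits every group, has the widest bar in each comparison.

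Some older miRNAs had been listed to stand beside the opposite-strand members, namely the let-7 family, miR-199a, miR-214 and miR-338. Not all of them face a member, and most of the older hairpins that do are outside this list. Of the list, 12 arms were tested, and 0 of the 12 passed the thresholds in any of the 8 comparisons by edgeR's quasi-likelihood test. Outside it, miR-539-3p, whose hairpin faces miR-3576, was called lower in PLA_A against CIA_B, as given above. Their median log2 fold change ranged from -0.28 in MS_E against PLA_E to 0.10 in 34 days against 1 h.

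A last group of members was seen too thinly for a test. Of the 8 members that exceeded 3 counts somewhere but were not tested, 3 did so in a single library, miR-3585-3p with 4 counts in MS_E replicate 2, miR-6318 with 4 in MS_A replicate 1 and miR-6325 with 4 in PLA_E replicate 1. The other 5, miR-3075, miR-3542, miR-3558-3p, miR-3559-3p and miR-6215, reached 4 to 9 counts. miR-3542 had a count in each of the 10 libraries, from 1 to 8. miR-6215 had 17 of its 19 counts in the libraries taken at 1 h, with 9 in PLA_E replicate 2, but 0 in PLA_E replicate 1. These counts are close to the floor of 3 and allow no comparison between groups.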

How the data were processed

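Small RNA libraries (TruSeq, Illumina HiSeq) were made from 10 tissue samples. The authors demultiplexed reads with CASAVA 1.8, trimmed adapters and discarded reads under 18 bases, aligned them with Bowtie to rn4 and to the rat entries of miRBase, and deposited raw read counts per mature miRNA and precursor from miRDeep2's quantifier. Such counting depends on the registry's sequences, and a read that fits several entries can be counted in each. A series-wide table with 20 value columns that match no label was not used.

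The largest count over precursors was taken for each mature miRNA. Members and lists were chosen with earlier results of these data known. miRNAs at 1 cpm or more, before TMM scaling, in at least 5 of the 10 libraries were fitted with edgeR 4.0.16 (R 4.3.3; TMM, prior count 2, quasi-likelihood test, 1 term per group); limma 3.58.1 (voom) and DESeq2 1.42.0 were alternatives. The script was tested on simulated data. p-values were adjusted over all miRNAs tested by Benjamini-Hochberg. A member counted as detected above 3 counts. Members named were the 10 of highest mean cpm, any called, the 2 on the study's list, those opposite miR-214, miR-338 and let-7, and those above 3 counts in 1 library only. Every other member named, such as miR-3585-5p, miR-3571, miR-3582, miR-3546 and miR-3542, was chosen after its values were seen. Sequences, positions and neighbours came from RefSeq tables of GRCr8. Depth was 1513799 to 8926170 reads, and intervals cover counting error only. Replicate numbers did not mark shared animals, since rats were killed at sampling.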

Additional observations from a re-analysis of the deposited data

How the results depend on the processing

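The fold changes of miR-6329 in MS_E against PLA_E and in MS against PLA, miR-6328 in MS_E against CIA_B, miR-6331 in PLA_A against CIA_B and miR-3473 in 34 days against 1 h kept their direction under each alternative run. Folds given for other pairs of member and comparison were not recomputed one by one. With no member called in the reported fit, 1 was called in MS_E against CIA_B (miR-6328) with limma-voom, DESeq2, the size factors of DESeq2, scaling by library size only, no filter, the replicate block and a term for the division by miR-1-3p. In PLA_A against CIA_B, 1 (miR-6331) was called with DESeq2, the replicate block and only the libraries compared. In 34 days against 1 h, 1 (miR-6215) was called with no filter, and in MS against PLA over both times 1 (miR-6329) with library size only. In MS_E against PLA_E, the 1 call fell to 0 with only the libraries compared. Where a call was gained, 2.79 to 11.4% of all miRNAs fitted were called, against 9.09% when 1 of 11 members is; the filter's absence left 45 members. The cause was not tested. No member had an adjusted p under 0.05 in any of these fits.

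Leaving out single libraries, 0 to 1 members were called in each comparison except MS_A against PLA_A and the test over the 5 groups, which stayed at 0. In the same fits 0.279 to 9.75% of the 359 miRNAs were called, from 4.46 to 8.91% in MS_E against CIA_B and 1.95 to 9.75% in MS_E against PLA_E. Without CIA_B replicate 2, miR-3559-5p was called in the 4 comparisons with CIA_B. These 4 share CIA_B replicate 1 as the only CIA_B library, the shallowest, where miR-3559-5p had 0 counts. They are comparisons with the floor, and no fold is given. The other calls gained were miR-6328 without CIA_B replicate 1 or MS_E replicate 1, and miR-6331 without CIA_B replicate 1 (PLA_A against CIA_B) or PLA_E replicate 1 (34 days against 1 h). Also gained were miR-6329 over both times without PLA_E replicate 1 or PLA_A replicate 1, and miR-3102 in MS_E against PLA_E without MS_E replicate 2. A group left with 1 library was taken to vary like the others.

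Members detected per library had a median of 25 at 1 count or more and 7.75 after thinning to the shallowest library. Over the series 45 members were detected at 1 count or more, 11 at 10 counts or more and 11.8 on average after thinning. The share of miRNA reads on members, median 0.0268%, was 0.0258% with summed precursors and 0.0177% without miR-3068-5p, over 1.5 times lower though within 1 SD. The difference in log2 cpm between replicate 1 and replicate 2 was taken within each group and correlated between groups over the miRNAs tested. These correlations of differences ran from -0.55 to 0.63 over 10 pairs of groups. The 4 above 0.1 joined groups whose library with more miR-1-3p has the same number, and the other 6 joined groups where the numbers are opposite. The labels do not say that a number marks a shared animal, batch or day, so the fit with the replicate block was kept as an alternative only. Depth limits members under 3 counts.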
